A study of Mus musculus with 2 samples.

Results

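The miR-30 family of the mouse was measured in the young adrenal gland through its 6 genes, Mir30a, Mir30b, Mir30c-1, Mir30c-2, Mir30d and Mir30e. They were chosen by symbol in GENCODE M21 from the 2202 miRNA genes counted, and all 6 were found. A microRNA is cut from a hairpin precursor into a short RNA from its 5p or 3p arm, which guides a silencing complex to messenger RNAs through bases 2 to 8, the seed. Members of a family share a seed and so can address overlapping sets of target messages. The miR-30 family is widely expressed in vertebrate tissues and is known for its part in kidney epithelium, in vessel sprouting and in the control of autophagy, where miR-30a lowers Beclin 1. The hairpin of miR-30a is also the backbone of many vectors for RNA interference.

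The libraries sequenced small RNA, with a stated size range below 30, from whole adrenal glands of male B6CASTF1/J mice, an F1 hybrid strain, at 14 days of age. There were 2 libraries, biological replicates 2 and 1, of different biosamples that each name 3 males, and no other condition, allele or agent. No source used here says whether a library pools animals, so the spread below is that between these samples and may be partly technical. Replicate 2 held 3464837 counts on the strand of miRNA genes and replicate 1 held 3024662. Levels are in CPM, the count scaled to a common miRNA total and given as mean ± SD with n = 2, and intervals are exact 95% ones that cover counting error only. In bulk tissue, fewer cells of a type and less RNA per cell cannot be told apart.

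The sequences below show how far the family members can be separated by their reads. The RefSeq sequences used here, on GRCm38.p6, covered 4 of the 6 genes, Mir30a, Mir30c-1, Mir30c-2 and Mir30e. Mir30b and Mir30d had no entry among them, so they are named only and their seeds were not examined. The mature RNAs are written 5′ to 3′, with the seed in capitals.
miR-30a-5p: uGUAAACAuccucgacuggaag
miR-30e-5p: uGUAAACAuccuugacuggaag
miR-30c-5p: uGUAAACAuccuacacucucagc
miR-30a-3p: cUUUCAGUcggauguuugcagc
miR-30e-3p: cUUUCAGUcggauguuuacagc
miR-30c-1-3p: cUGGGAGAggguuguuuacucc
miR-30c-2-3p: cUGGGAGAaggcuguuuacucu

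The 5p arms of all 4 genes carried the seed GUAAACA and had the same first 12 bases. Counted from 1 at the 5′ end, miR-30a-5p and miR-30e-5p differed by C13U alone, and their 3p arms by G18A alone. The 5p arm of Mir30c-1 and Mir30c-2 was identical over all 23 bases, so a full-length read of it fits both genes. Their 3p arms differed by G9A, U12C and C22U, written from Mir30c-1 to Mir30c-2. The 3p arms fell into separate seed groups, UUUCAGU for Mir30a and Mir30e and UGGGAGA for the Mir30c genes. Of 1738 mature miRNAs of 1058 genes in the RefSeq table, 5 carried GUAAACA, those of these 4 genes and of Mir384. Mir30b and Mir30d were not among those 1058 genes.

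The hairpins place those arms within the annotated genes. Mature arms are in capitals, and the first 2 are the hairpins whose arms differ by single bases while the last 2 share their 5p arm.
Mir30a: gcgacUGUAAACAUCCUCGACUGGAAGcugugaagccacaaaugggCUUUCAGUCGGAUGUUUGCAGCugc
Mir30e: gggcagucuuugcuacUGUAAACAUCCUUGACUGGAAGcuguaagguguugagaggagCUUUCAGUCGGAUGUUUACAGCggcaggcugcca
Mir30c-1: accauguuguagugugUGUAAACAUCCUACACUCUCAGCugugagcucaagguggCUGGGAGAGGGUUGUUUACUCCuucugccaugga
Mir30c-2: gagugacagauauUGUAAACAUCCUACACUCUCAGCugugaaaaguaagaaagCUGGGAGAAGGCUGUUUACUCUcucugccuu

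The longest stretch common to the hairpins of Mir30a and Mir30e was 18 bases, against 28 for Mir30c-1 and Mir30c-2. The Mir30a and Mir30e hairpins each had 12 bases in common with either Mir30c hairpin. Across the 2202 annotated hairpins, Mir30c-1 and Mir30c-2 shared a 20-base stretch with each other and with no other miRNA gene. The other 4 members, Mir30a, Mir30b, Mir30d and Mir30e, shared none on their own strand. Of all 2202 hairpins, 1084 (49.2%) shared such a stretch with another. The deposited counts leave out reads with more than 1 mapping position. The levels of Mir30c-1 and Mir30c-2 may therefore be too low. Matches elsewhere in the genome were not examined for any member, so the other 4 may have lost reads too. A gene is a hairpin here, so its 5p and 3p reads were summed.

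The 6 genes form 3 pairs of neighbouring hairpins, each pair on 1 strand of 1 chromosome (mm10). On the plus strand of chromosome 1, Mir30a (chr1:23272269-23272339) overlapped no annotated gene, and Mir30c-2 (chr1:23291701-23291784) lay 19361 bases downstream, in an exon of the long non-coding RNA Gm27028. On the minus strand of chromosome 4, Mir30e (chr4:120772606-120772697) and Mir30c-1 (chr4:120769534-120769622) lay 2983 bases apart in introns of Nfyc, which codes for a subunit of the CCAAT-binding factor NF-Y. On the minus strand of chromosome 15, Mir30d (chr15:68341208-68341289) lay in an exon of the long non-coding RNA Gm20732 and partly in an exon of Gm37296. Mir30b (chr15:68337415-68337510) lay 3697 bases downstream of Mir30d and partly in an exon of the processed transcript Gm26621. In each pair the upstream hairpin was the abundant one.

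Of all miRNA counts the family held 3.46% in replicate 2 (interval 3.44 to 3.48), against 2.72% in replicate 1 (2.70 to 2.74), or 3.09% ± 0.518. All 6 members reached 2 CPM in each library, as did 364 of the 2202 miRNA genes. Nearly all of the family's counts came from Mir30e, Mir30a and Mir30d, which together held 3.40% of miRNA counts in replicate 2 and 2.65% in replicate 1. Mir30b, Mir30c-2 and Mir30c-1 together held 0.0585% in replicate 2 and 0.0683% in replicate 1. The part of the Mir30c genes may be too low, since reads that map to both were left out.

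**Figure D1:**
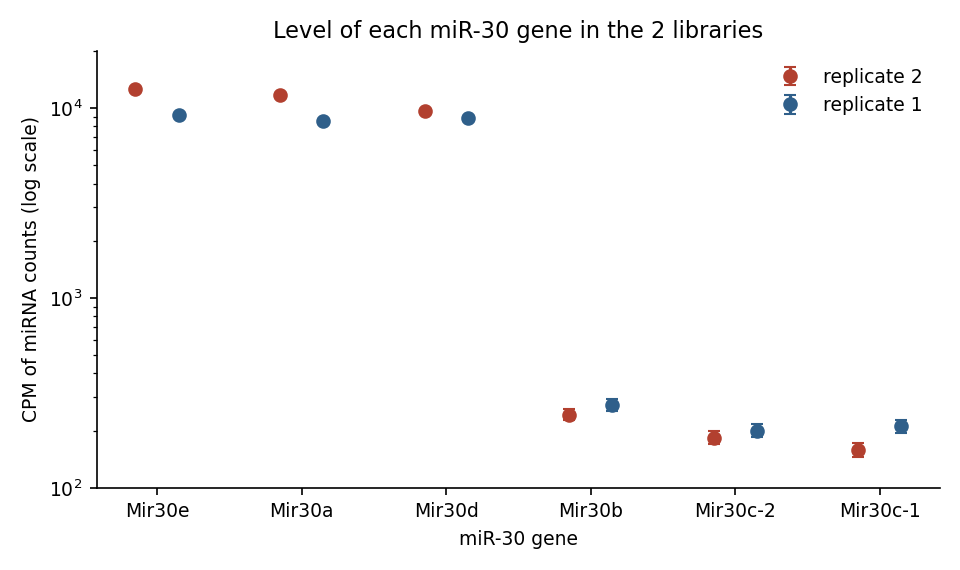
CPM of each miR-30 gene on a log scale, in replicate 2 (red) and replicate 1 (blue), with exact 95% counting intervals as bars. Mir30e, Mir30a and Mir30d lie between 8518 and 12631 CPM, and Mir30b, Mir30c-2 and Mir30c-1 between 159 and 273 CPM.

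Mir30e had 12631 CPM in replicate 2 and 9182 CPM in replicate 1, or 10906 ± 2439 CPM, which placed it 22nd of the miRNA genes by mean level. Mir30a, whose product lowers Beclin 1, had 11714 CPM in replicate 2 and 8518 CPM in replicate 1, or 10116 ± 2260 CPM. Mir30d, a miRNA also studied in pancreatic beta cells of the mouse, had 9635 CPM in replicate 2 and 8849 CPM in replicate 1, or 9242 ± 555 CPM. The values of these 3 genes overlapped between the libraries. Within each library Mir30e was the highest of the 3, whereas Mir30a was above Mir30d in replicate 2 and below it in replicate 1. The order of Mir30a and Mir30d thus changed between the libraries.

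Mir30b had 243 CPM in replicate 2 and 273 CPM in replicate 1, or 258 ± 21.2 CPM. Mir30c-2 had 184 CPM in replicate 2 and 200.0 CPM in replicate 1, or 192 ± 11.6 CPM. Mir30c-1 had 159 CPM in replicate 2 and 211 CPM in replicate 1, or 185 ± 36.7 CPM. The Mir30c genes, whose miRNA lowers the lipid-transfer protein MTP in mouse liver, exchanged order between the libraries. The lower library of Mir30b lay above the higher library of each Mir30c gene, but the Mir30c levels may be too low. Between Mir30d and Mir30b, next to each other in the order, the means differed 35.9-fold and the libraries did not overlap. Levels were not tested, since the smallest two-sided p that exact sign flips of 2 libraries allow is 0.5.

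**Figure D2:**
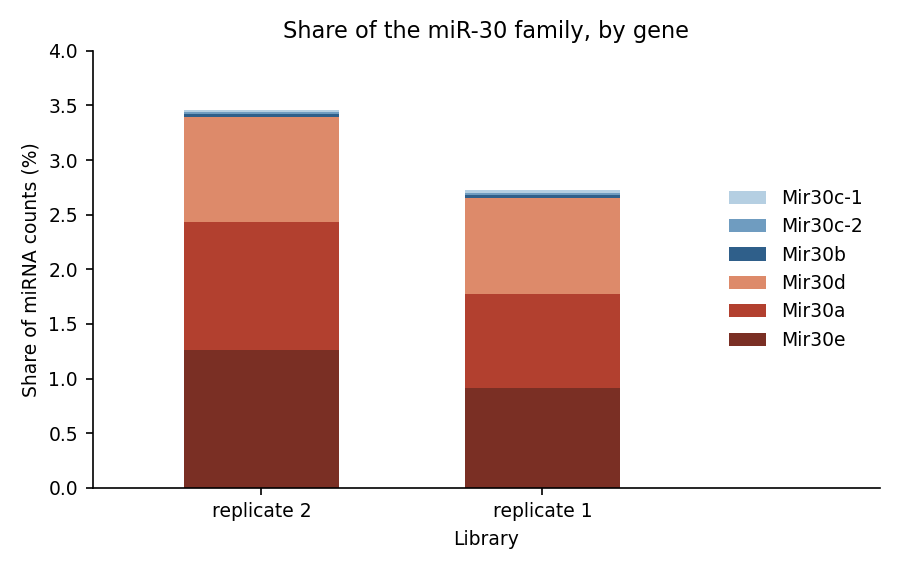
Share of miRNA counts (%) held by the miR-30 family in replicate 2 (left) and replicate 1 (right), stacked by gene. The total is 3.46% in replicate 2 and 2.72% in replicate 1, and the layers of Mir30b, Mir30c-2 and Mir30c-1 are barely visible.

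Within the family, Mir30e made up 36.5% in replicate 2 (36.3 to 36.8), against 33.7% in replicate 1 (33.4 to 34.0). Mir30a made up 33.9% in replicate 2 (33.6 to 34.2), against 31.3% in replicate 1 (31.0 to 31.6). Mir30d made up 27.9% in replicate 2 (27.6 to 28.1), against 32.5% in replicate 1 (32.2 to 32.8). The share of Mir30d was thus lower in replicate 2 and those of Mir30e and Mir30a higher, by more than counting error. Each of the other 3 genes held between 0.459% and 1.00% of the family.

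Mir30e and Mir30a lie on different chromosomes, yet their count ratio was nearly the same in both libraries. It was 1.08 in replicate 2 (1.06 to 1.09), against 1.08 in replicate 1 (1.06 to 1.10). The ratio of Mir30d to Mir30a was 0.823 in replicate 2 (0.811 to 0.835) and 1.04 in replicate 1 (1.02 to 1.06), a shift beyond counting error. Another pair on different chromosomes, Mir30b and Mir30c-2, also kept its ratio within counting error, with wider intervals. Replicate 2 gave 1.32 (1.19 to 1.47) for Mir30b over Mir30c-2, while replicate 1 gave 1.36 (1.23 to 1.52). A stable ratio was thus not particular to Mir30e and Mir30a. The 5p arms of Mir30e and Mir30a are the pair above that differ by C13U alone. No source used here says how many mismatches the authors' alignment allowed, and the part of shared sequence in this likeness was not tested.

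Between the libraries the abundant Mir30e and Mir30a were higher in replicate 2, and the scarce Mir30c-1 was lower. Mir30e was 1.38-fold higher in replicate 2 than in replicate 1 (1.36 to 1.40) and Mir30a likewise 1.38-fold (1.35 to 1.40). Mir30d was 1.09-fold higher (1.07 to 1.11), but its ratio was 0.991 with unstranded counts. Mir30c-1 was 1.33-fold lower in replicate 2 (1.18 to 1.49) and Mir30b 1.12-fold lower (1.02 to 1.24). Mir30c-2 had a ratio of replicate 2 to replicate 1 of 0.918 (0.820 to 1.03). An exact binomial test, adjusted by Benjamini-Hochberg over 413 miRNA genes, was made on the counts, and 3 members were higher in replicate 2 and 2 lower. The adjusted p was 1.56e-24 for Mir30d, 3.41e-06 for Mir30c-1, 0.0350 for Mir30b and 0.198 for Mir30c-2, and for Mir30e and Mir30a it was too small to be represented. This test compares those libraries and not conditions.

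Among all 413 genes tested, 55.4% differed by that test, 28.8% higher and 26.6% lower in replicate 2. The count of 5 of 6 members is to be read against that background. None of the 6 members, all above 100 CPM, differed 2-fold or more, whereas this was so for 14.8% of the 189 genes of 100 CPM or more. The median absolute log2 ratio of those 189 genes was 0.33, and the members had log2 ratios of 0.46 for Mir30e, 0.46 for Mir30a, 0.12 for Mir30d, -0.12 for Mir30c-2, -0.17 for Mir30b and -0.41 for Mir30c-1. Over the 6 members the median log2 ratio was -0.0006, and over the tested genes with counts in both libraries it was 0.03. The calls of Mir30d, Mir30b and Mir30c-2 depended on the scaling. Mir30d did not pass the test with unstranded counts, nor without Mir126a in the total, where its ratio was 1.02. Mir30b did not pass without Mir122 in the total or with edgeR's TMM scaling, nor with a minimum of 1 count for the genes tested (adjusted p = 0.0626 by the exact test). Mir30c-2 passed as lower with unstranded counts (adjusted p = 0.00376 by the exact test) and without Mir126a in the total (0.0136).

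**Figure D3:**
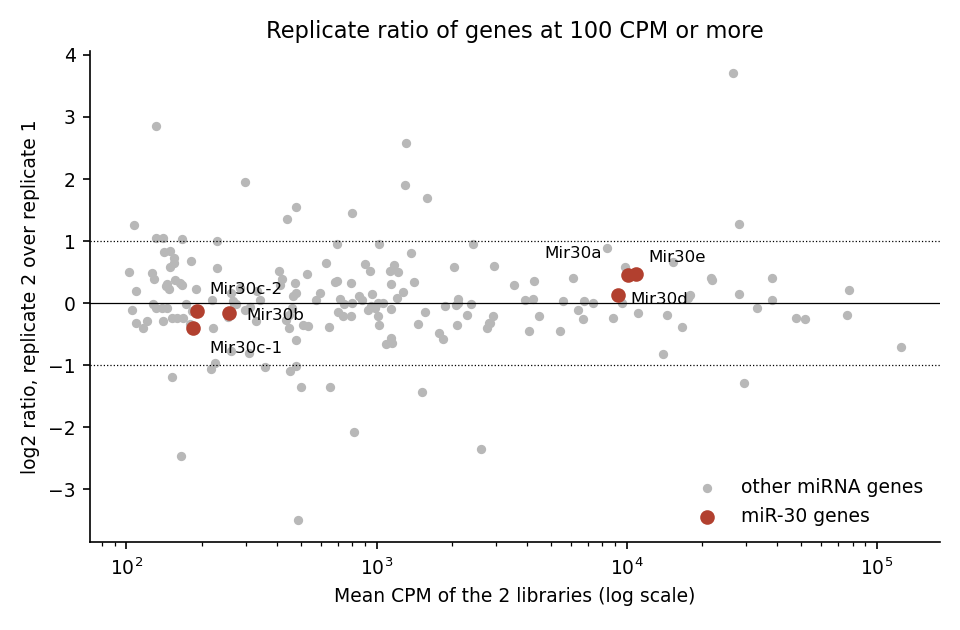
The log2 ratio of replicate 2 over replicate 1 against the mean CPM (log scale) for the 189 miRNA genes of 100 CPM or more, with the miR-30 genes in red and dotted lines at a 2-fold difference. Mir30e and Mir30a lie together at 0.46, Mir30d at 0.12, and the other 3 genes below 0, all inside the dotted lines.

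Markers of other cell types moved between the same libraries. Mir122, the main miRNA of hepatocytes, had 49475 CPM in replicate 2 and 3786 CPM in replicate 1, 13.1-fold higher in replicate 2. The 7 miRNAs of kidney and gut epithelium summed to 556 CPM in replicate 2 and 178 CPM in replicate 1, with 5 higher and 1 lower in replicate 2. The endothelial Mir126a had 94732 CPM in replicate 2 and 155646 CPM in replicate 1. The 3 red blood cell miRNAs summed to 19202 CPM in replicate 2 and 43959 CPM in replicate 1, and the 4 white blood cell miRNAs to 1710 CPM in replicate 2 and 3466 CPM in replicate 1. By the exact test 2 red blood cell miRNAs were lower in replicate 2 and 0 higher, while 3 white blood cell miRNAs were lower and 1 was higher. The 4 neuroendocrine miRNAs of the list for the adrenal medulla summed to 34282 CPM in replicate 2 and 31136 CPM in replicate 1, with 2 higher and 0 lower in replicate 2. The 6 smooth muscle and fibroblast miRNAs summed to 45553 CPM in replicate 2 and 53199 CPM in replicate 1, with 1 higher and 2 lower in replicate 2. Of 5 striated muscle miRNAs, Mir133a-1, Mir133a-2 and Mir1a-1 had no count, and the sum was 9.52 CPM in replicate 2 and 6.28 CPM in replicate 1. All these counts of calls are to be read against the 28.8% of the 413 tested genes called higher and the 26.6% called lower. The part of these markers in the miR-30 values was not tested.

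Neighbouring hairpins of the family were far apart in level. Mir30e exceeded Mir30c-1 79.6-fold in replicate 2 (73.2 to 86.7) and 43.6-fold in replicate 1 (40.3 to 47.2). Mir30a exceeded Mir30c-2 63.8-fold in replicate 2 (59.0 to 69.1) and 42.6-fold in replicate 1 (39.3 to 46.2). Mir30d exceeded Mir30b 39.7-fold in replicate 2 (37.1 to 42.6) and 32.4-fold in replicate 1 (30.3 to 34.8). All 3 ratios were larger in replicate 2. The ratios to Mir30c-1 and Mir30c-2 may be too high, since those genes share their 5p arm, and the part of this was not tested. Mir30b shared no 20-base stretch with another miRNA gene, but its shorter stretches and its matches elsewhere in the genome were not examined.

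As a background, 107 pairs of other miRNA genes followed each other on the same strand at a gap under 10000 bases, with 10 or more counts in each gene. Their levels differed by a median of 5.78-fold, with the middle of the distribution from 1.98-fold to 30.2-fold by quartiles. By mean level, 13 of the 107 pairs (12.1%) exceeded the ratio of Mir30e to Mir30c-1, and 25 (23.4%) exceeded that of Mir30d to Mir30b. The gap between Mir30a and Mir30c-2 is wider than that limit, so its pair was set against the 115 pairs under 50000 bases apart, of which 15 (13.0%) exceeded its ratio. All 3 ratios thus lay above the median of neighbouring miRNA pairs.

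**Figure D4:**
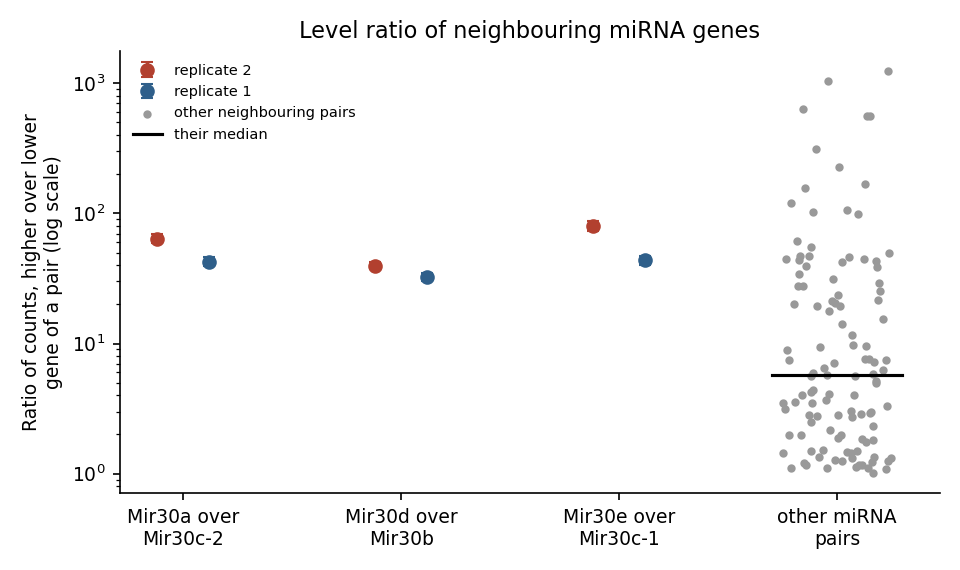
Ratio of counts of the higher over the lower gene of a pair on a log scale, for the 3 miR-30 pairs in replicate 2 (red) and replicate 1 (blue) with exact 95% counting intervals, and by mean level for the 115 other neighbouring miRNA pairs under 50000 bases apart (grey, black line at the median of 5.78). The miR-30 pairs lie between 32.4 and 79.6.

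Both genes with a related sequence outside the 6 contributed little. Mir384, an X-linked gene on the minus strand (chrX:105344282-105344369), gives miR-384-5p, which is known from the brain and carries the same seed.
miR-384-5p: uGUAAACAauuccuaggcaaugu

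It had the first 8 bases in common with miR-30a-5p. Mir384 had 17.3 CPM in replicate 2 and 21.5 CPM in replicate 1, or 19.4 ± 2.95 CPM. That was 0.0501% of the family sum in replicate 2 and 0.0789% in replicate 1, and its ratio of replicate 2 to replicate 1 of 0.806 (0.558 to 1.16) did not pass the exact test (adjusted p = 0.343).

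Mir30f is annotated at the same position as Mir30e on the opposite strand. Its listed mature RNA lies opposite the 3p arm of Mir30e and not opposite the 5p arm. It begins like the family's 5p sequence read from 1 base later, so that its seed differs, and then departs from that sequence.
miR-30f: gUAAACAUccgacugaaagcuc

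Mir30f had 0 counts on its own strand in both libraries, which allows up to 0.866 CPM in replicate 2 and 0.992 CPM in replicate 1. The opposite strand of Mir30f held 43766 counts in replicate 2 and 27771 in replicate 1, the same numbers as the sense counts of Mir30e. In the column that ignores strand, Mir30e and Mir30f each had 0 counts in both libraries. The level of Mir30e thus rests on the strand-aware column. Mir451a likewise had 0 counts there, and Mir126a had 12 in replicate 2 and 6 in replicate 1. The total of that column was smaller too, at 2670655 in replicate 2 and 2122450 in replicate 1. The genes named here made up only part of that loss. The other 5 members had equal counts in both columns and no opposite-strand count.

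Among genes outside the family, Mir21a, a miRNA raised in many tumours and injured tissues, was nearest to both Mir30a and Mir30e by distance over the 2 libraries in log2(CPM + 1). It had 11784 CPM in replicate 2 and 7910 CPM in replicate 1, at distances of 0.11 from Mir30a and 0.24 from Mir30e. Mir379 of the Dlk1-Dio3 locus was nearest to Mir30d, with 9553 CPM in replicate 2 and 9530 CPM in replicate 1, at a distance of 0.11. With 2 libraries these distances compare levels only.

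By counts that leave out reads with more than 1 mapping position, other families of several genes differed in how far 1 gene led. This is given as values without a test. In the miR-30 family the leading gene, Mir30e, held 35.3% of the sum by mean level. Mirlet7g held 39.0% of the 11 Mirlet7 genes, which took 19.3% of miRNA counts in replicate 2 and 19.8% in replicate 1. Mir26b held 99.9% of the 3 miR-26 genes, at 3.98% in replicate 2 and 1.65% in replicate 1. Mir29a held 78.8% of the 4 miR-29 genes, at 0.147% in replicate 2 and 0.158% in replicate 1. Between the libraries the miR-30 sum differed 1.27-fold (1.26 to 1.28) and the miR-26 sum 2.41-fold (2.39 to 2.44), both higher in replicate 2, whereas the let-7 and miR-29 sums had ratios of 0.978 and 0.932. Over genes the picture differed from the sums. The exact test called 8 of the 11 Mirlet7 genes higher in replicate 2 and 2 lower. Of all 413 genes tested, 28.8% were called higher and 26.6% lower. The median log2 ratio over the 11 Mirlet7 genes was 0.29, while Mirlet7g had a ratio of 0.877. The median over the 6 miR-30 genes was -0.0006. Members of these families that share sequence may also be too low. The share of a leading gene may then be too high, and the part of this was not tested.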

How the data were processed

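Small RNA libraries of mouse adrenal gland gave 1 group of 2 samples. The authors deposited unnormalized counts for each miRNA gene, 1 file per library, made on mm10 with GENCODE M21 per the deposited notes. No source used here names the aligner, the counter or their settings. Each file has 3 count columns after 4 summary rows. From the values, these count reads on either strand, on the strand of the gene and on the opposite strand, and the second was used. Summary rows name no gene and were left out of totals. They held 59.1% of the reads of replicate 2 and 57.8% of replicate 1, multimapping reads among them (29.4% and 27.5%).

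All 2202 identifiers matched GENCODE M21. Counts were divided by the miRNA total, and 1 count was 0.289 CPM in replicate 2 and 0.331 CPM in replicate 1. Shares have exact Clopper-Pearson intervals, and ratios exact conditional ones. Genes with 10 or more counts in both libraries together were compared between the libraries by a conditional binomial test, exact and two-sided, with Benjamini-Hochberg adjustment over all of them at 0.05. It was tested on simulated data that hold counting error only and not the wider spread between these libraries. A chi-square of 796 per degree of freedom showed that the files are not 1 library deposited under both numbers. Named genes are the members, genes with their 5p seed, Mir30f, overlapping genes, miRNAs listed as cell type markers, the gene nearest in level to each member of 1000 CPM or more, and the leading genes of 3 comparison families. The members, lists and tests were chosen with earlier results of these data known.

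The alternatives were unstranded counts, totals without Mir122 or Mir126a or with all reads, edgeR's TMM, DESeq2's size factors, a minimum of 1 count, removal of members with a shared stretch, each library alone, and a pair gap of 50000 bases. Scaling factors came from DESeq2 1.42.0 and edgeR 4.0.16 in R 4.3.3. The rest was computed with SciPy 1.17.1, pandas 2.3.3 and NumPy 2.4.6 in Python 3.11.15, and plotted with matplotlib 3.10.9.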

Additional observations from a re-analysis of the deposited data

Results flagged for a closer look

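Counts and reads outside the levels above are given here as values, without control samples for comparison. The opposite strand of Mir30f held 43766 counts in replicate 2 and 27771 in replicate 1, equal to the sense counts of Mir30e at the same position. Reads with more than 1 mapping position, which no gene receives, made up 29.4% of reads in replicate 2, against 27.5% in replicate 1. That is 20.9 times the counts of the whole miR-30 family in replicate 2 and 23.9 times in replicate 1. The files do not show which of those reads belong to the 5p arm common to Mir30c-1 and Mir30c-2. A design of 2 libraries in 1 group allows no search for a sample far from the others or for a difference between groups.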

How the results depend on the processing

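The family share was 3.18% without Mir122 in the total, 3.52% without Mir126a, 3.05% without the Mir30c genes and 1.28% with all reads of the file as the total. With unstranded counts it was 2.71%, which shows no stability, since Mir30e drops out of the sum and the total falls as well. The total loses Mir451a, nearly all of Mir126a and also counts of genes not named here. Each library alone gave 3.46% without replicate 1 and 2.72% without replicate 2. With unstranded counts the mean levels were 13668 CPM for Mir30a, 12555 for Mir30d, 352 for Mir30b, 262 for Mir30c-2, 253 for Mir30c-1 and 0 for Mir30e, whose ratio to Mir30c-1 was then 0. Without Mir126a in the total they were 10562 CPM for Mir30d, 296 for Mir30b and 220 for Mir30c-2. Of the 5 steps in the order of members, 5 held without replicate 1 and 3 without replicate 2. The ratio of replicate 2 to replicate 1 of Mir30d was 0.991 with unstranded counts (adjusted p = 0.377 by the exact test) and 1.02 without Mir126a (0.100). That of Mir30b was 0.933 without Mir122 (adjusted p = 0.224) and 0.901 with TMM (0.0608), and with a minimum of 1 count its adjusted p was 0.0626 by the exact test. That of Mir30c-2 passed the exact test at 0.835 with unstranded counts and at 0.856 without Mir126a. The counts of Mir30d, Mir30b and Mir30c-2 were equal with and without regard to strand, so only the scaled totals and the set of genes tested changed. The total of replicate 2 over that of replicate 1 was 1.15 as reported, 1.26 with unstranded counts and 1.23 without Mir126a. It was 1.09 without Mir122 and 1.13 with TMM. Mir30e, Mir30a and Mir30c-1 kept their calls under every scaling tried, except that Mir30e had no unstranded count. Over all genes, 119 were higher and 110 lower in replicate 2, against 74 and 139 with unstranded counts, where the median log2 ratio was -0.14, 94 and 136 without Mir126a, and 138 and 95 without Mir122. No paired analysis was possible because there is 1 group. Counting limits a gene with no count to 0.866 CPM in replicate 2 and 0.992 CPM in replicate 1.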
